A study of Danio rerio with 6 samples.

Results

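The miR-26 family was described at 4 of the 434 annotated miRNA loci counted in injured and control telencephalic hemispheres of adult zebrafish. The loci are those whose symbol carries the number 26, and all 4 had enough reads over the 6 libraries together to be tested. ENSDARG00000080579 is called mir-26b and ENSDARG00000080591 is called mir-26a-1 by the study, although the symbol table gives both the human-style symbol MIR26A2. ENSDARG00000081224 has the symbol MIR26A1 and ENSDARG00000086601 has the symbol mir26a-2.

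Small RNAs were sequenced from 3 injured hemispheres, stabbed with a needle, and from 3 hemispheres labelled healthy, without treatment. Per the study, RNA was taken 5 days after the lesion, and the contralateral, uninjured hemisphere served as control. Control tissue thus came from lesioned fish. Neither the labels nor the methods state strain, sex or exact age. No source says which libraries share a fish, so the main tests were unpaired and p-values measure the spread between these libraries only. RNA came from whole hemispheres, so fewer cells of a type and less RNA per cell cannot be told apart. Whether library preparation, mapping or read filtering differed between the groups was not tested either.

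MicroRNAs are short RNAs that lead a silencing complex to messenger RNAs with matching sites, mostly through the bases of their seed. Mature miR-26a and miR-26b share their seed and differ at few bases outside it. Vertebrate mir-26 genes lie in introns of the ctdsp genes, which encode small phosphatases that act on RNA polymerase II and help the REST repressor to silence neuronal genes. In zebrafish, miR-26b is known to repress its own host ctdsp2 while neurons differentiate. RefSeq genes were looked up in the assembly GRCz12tu, a later one than the build used for counting. It holds 4 mir-26 genes, each within the span of 1 such gene. In it, mir-26b lies in ctdsp2, mir-26a-1 in ctdsp1, mir26a-2 in ctdsplb and mir26a-3 in ctdspla. No table used here pairs ENSDARG00000081224 with any of these genes by identifier.

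The injured libraries held 11473850 to 14545864 reads at miRNA loci and the control libraries held 2475462 to 4008607, so depth and group cannot be told apart. Levels are reads per 1000000 reads at miRNA loci (RPM). The reads are inserts as long as the mature miRNA, so levels of loci were compared without a correction for the length of the gene. Brain miRNAs were present. The mir-9 loci summed to 95658 to 109722 RPM in injured and 96063 to 102090 RPM in control libraries. The line for reads with several alignments held 0 reads in every library. A mature sequence that fits several loci equally well can thus be counted too low. Whether this holds for the mir-26 loci was not tested. Their levels, ranks, shares and total therefore describe the counted reads only. The 7 mir-124 loci, copies of a miRNA that is abundant in vertebrate neurons, summed to only 56.8 to 65.8 RPM in injured and 57.1 to 61.6 RPM in control libraries.

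Among the counted reads, mir-26b was nearly absent in injured hemispheres and was the second most abundant mir-26 locus in controls. It had 12, 6 and 10 reads in injured libraries 1, 2 and 3, against 840, 1135 and 950 reads in control libraries 1, 2 and 3. As levels these are 0.825, 0.520 and 0.872 RPM in injured libraries. The control libraries had 320, 283 and 384 RPM. The exact 95% binomial intervals were 0.426 to 1.44, 0.191 to 1.13 and 0.418 to 1.60 RPM in the injured libraries. These intervals cover counting error only, since amplified reads without molecular identifiers are not independent molecules. The means were 0.739 ± 0.191 RPM in injured and 329 ± 50.9 RPM in control libraries (SD, n = 3 each). The lowest control library still had 325 times the level of the highest injured library. In rank, mir-26b stood at 192 to 196 of 434 loci in injured libraries and at 78 to 86 in control libraries. Only 222 of the 434 loci had a read in some library, so its injured ranks are near the bottom of the detected loci.

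By edgeR, mir-26b fell by 8.80 on the log2 scale (SE 0.24; 95% interval of the log2 fold change −9.37 to −8.23; adjusted p = 4.24e-07). This was the lowest value of all 188 tested loci. mir-26b passed the limit for testing, a mean normalised count above 10 over the 6 libraries, only through its control libraries. The 3 other loci called lower had log2 fold changes of −0.56 to −0.33, and the lowest value outside the family was −0.76. In 20 random thinnings of all libraries to 2475462 reads, chosen after the data had been seen, mir-26b was called lower in 20, with log2 fold changes of −10.82 to −8.06. These draws left 0 to 6 mir-26b reads in an injured library, so the call could hardly be lost. The value of −10.82 came from a draw with 1, 0 and 0 reads in injured libraries 1, 2 and 3. Thinning evens out read numbers only and cannot address other differences between the groups that go with depth.

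mir-26a-1, the rarest mir-26 locus in controls, was higher in each injured library than in any control library. It had 440, 295 and 271 reads in injured libraries 1, 2 and 3, against 47, 71 and 37 reads in control libraries 1, 2 and 3. The levels were 30.2, 25.6 and 23.6 RPM in injured libraries. In control libraries they were 17.9, 17.7 and 14.9 RPM. The means were 26.5 ± 3.41 RPM in injured and 16.9 ± 1.65 RPM in control libraries (SD, n = 3 each). By edgeR it rose by 0.61 on the log2 scale (SE 0.14; 95% interval 0.29 to 0.93; adjusted p = 0.0302). The call was lost when any single library was left out, with edgeR adjusted p between 0.0520 and 0.123 and log2 fold changes between 0.52 and 0.67. It was also lost in 13 of the 20 thinnings. Between the control libraries the SD was 9.80% of the mean, below the 14.2% that counting error alone gives.

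MIR26A1 was the most abundant mir-26 locus in every library, and its group means were almost equal. It had 429, 478 and 404 RPM in injured libraries 1, 2 and 3, against 431, 479 and 401 RPM in control libraries 1, 2 and 3. The means were 437.0 ± 37.5 RPM in injured and 437.0 ± 39.6 RPM in control libraries (SD, n = 3 each). The groups overlap fully. Its log2 fold change was −0.04 (SE 0.10; 95% interval −0.27 to 0.19; edgeR adjusted p = 0.903).

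mir26a-2 had 238, 215 and 220 RPM in injured libraries 1, 2 and 3, against 276, 240 and 234 RPM in control libraries 1, 2 and 3. The means were 224 ± 12.0 RPM in injured and 250.0 ± 23.04 RPM in control libraries (SD, n = 3 each). The highest injured library lay just above the lowest control library, so the groups overlap. Its log2 fold change was −0.19 (SE 0.10; 95% interval −0.43 to 0.04) and did not pass the test (edgeR adjusted p = 0.346). The interval leaves room for a decrease of up to 0.43 on the log2 scale. The fold change was −0.11 on that scale without control 1 and −0.31 with upper-quartile scaling, and neither passed the test (edgeR adjusted p = 0.757 and 0.165).

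**Figure D1:**
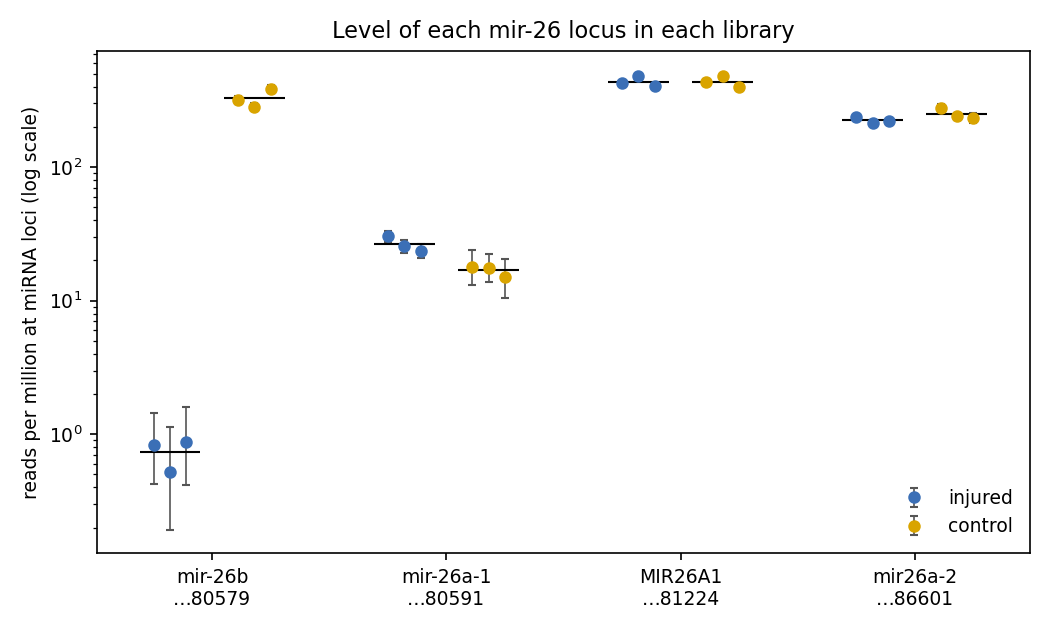
Level of each mir-26 locus in RPM, on a log axis. Points are libraries 1, 2 and 3 of the injured (blue) and control (yellow) group from left to right, vertical bars are exact 95% binomial intervals, and horizontal lines are group means. mir-26b stands at 0.520 to 0.872 RPM in injured and 283 to 384 RPM in control libraries, while the groups of MIR26A1 and mir26a-2 overlap.

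Of the 4 loci, 2 were called changed, 1 lower and 1 higher. Over all tested loci 24 of 188 (12.8%) were called, 4 lower (2.13%) and 20 higher (10.6%). At 2 of the 4 loci the injured RPM values all lay on 1 side of the control values, which was so at 22.9% of tested loci. Of the 4, mir-26b lay wholly below the controls, as did 5.85% of tested loci, and mir-26a-1 lay wholly above them, as did 17.0% of tested loci. Over all tested loci the log2 fold changes had a median of 0.03, and over the 4 mir-26 loci the median was −0.12.

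**Figure D2:**
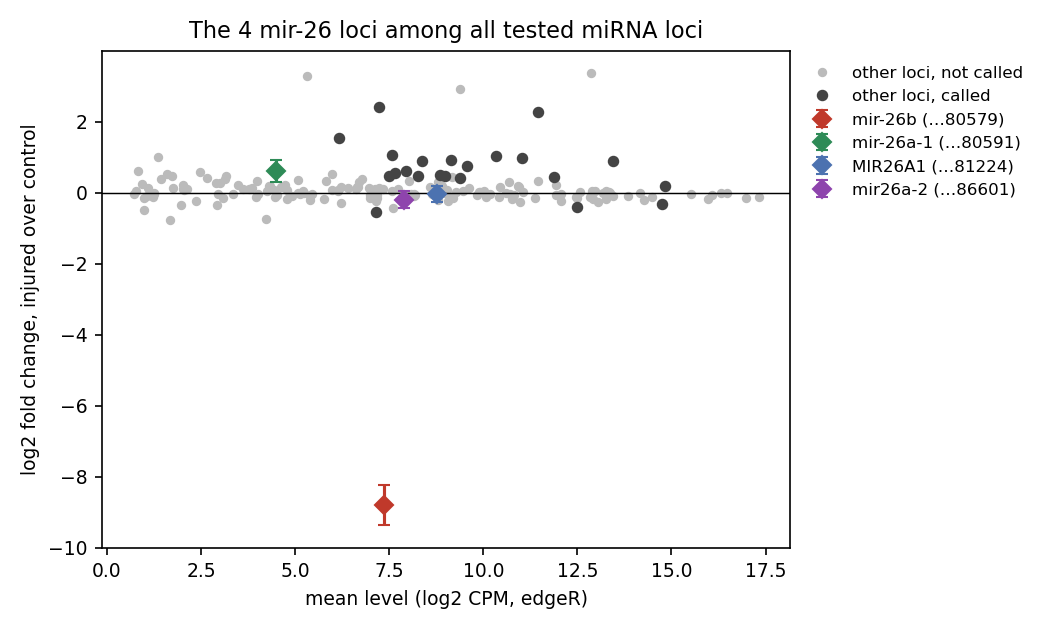
Log2 fold change, injured over control, against mean level in log2 CPM (counts per 1000000 reads after scaling) for the 188 tested loci. Diamonds are the 4 mir-26 loci with 95% intervals, dark points are other loci called by edgeR and light points are other loci not called. mir-26b lies at −8.80, with a gap to the lowest other locus at −0.76.

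Summed over the 4 loci, the mir-26 level fell to 0.667 of the control level in injured hemispheres. The family total was 698, 719 and 649 RPM in injured libraries 1, 2 and 3, against 1045, 1020 and 1033 RPM in control libraries 1, 2 and 3. The means were 689 ± 35.8 RPM in injured and 1033 ± 12.7 RPM in control libraries (SD, n = 3 each). With the 4 loci counted as 1 feature, its log2 fold change was −0.62 (SE 0.07; 95% interval −0.80 to −0.45; edgeR adjusted p = 0.00287 over 185 features). This call does not depend on how the counted reads were divided among the 4 loci. Reads that fit several of the loci equally well may be missing from the total. The call held under all 16 other settings tried.

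The control totals were closer to each other than the single loci were. Between control libraries the SD of the total was 1.23% of its mean, against 1.83% from counting error alone, while it was 15.5% for mir-26b and 9.06% for MIR26A1. Control 3 had the highest mir-26b and the lowest MIR26A1 level, and control 2 had the reverse. With 3 libraries this is a description only.

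Most of the decrease of the total came from mir-26b. The difference in mean level, injured minus control, was −344 RPM for the total and −328 RPM for mir-26b, which is 95.3% of it. mir26a-2 differed by −25.7 RPM and MIR26A1 by −0.023 RPM. The gain at mir-26a-1, 9.63 RPM, was 2.94% of the loss at mir-26b.

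Without mir-26b, the remaining 3 loci summed to 697, 718 and 648 RPM in injured libraries 1, 2 and 3, against 725, 737 and 650 RPM in control libraries 1, 2 and 3. The groups overlap. As 1 feature these loci did not pass the test by edgeR (adjusted p = 0.744), with a difference of −0.07 ± 0.08 (SE) on the log2 scale. The 95% interval, −0.26 to 0.12, corresponds to 0.835 to 1.09 times the control level.

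**Figure D3:**
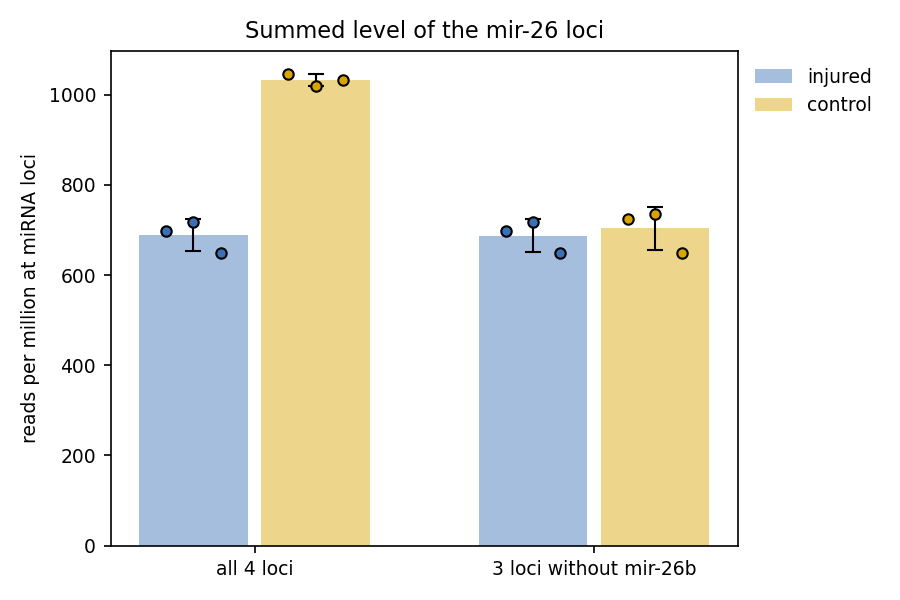
Summed level in RPM of all 4 mir-26 loci (left) and of the 3 loci without mir-26b (right). Bars are means of the injured (blue) and control (yellow) libraries, error bars are SD (n = 3) and points are libraries. The totals of 649 to 719 RPM in injured and 1020 to 1045 RPM in control libraries do not overlap, and the sums without mir-26b do.

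The share of each locus in the family reads of a library does not depend on scaling between libraries. mir-26b made up 0.118%, 0.0724% and 0.134% of the family in injured libraries 1, 2 and 3, against 30.6%, 27.8% and 37.1% in control libraries 1, 2 and 3. The means were 0.108% ± 0.0321 in injured and 31.8% ± 4.81 in control libraries (SD, n = 3 each). MIR26A1 made up 63.4% ± 2.69 of the family in injured and 42.3% ± 4.21 in control libraries (SD, n = 3 each). mir26a-2 made up 32.6% ± 2.38 in injured and 24.2% ± 2.00 in control libraries, and mir-26a-1 made up 3.84% ± 0.426 in injured and 1.63% ± 0.161 in control libraries (SD, n = 3 each).

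None of the 4 shares overlapped between the groups, although the levels of MIR26A1 and mir26a-2 did. How often shares of loci in other families did not overlap was not counted. Each gave a two-sided exact permutation p of 0.1, the smallest that 3 against 3 libraries allow, and 0.1 after adjustment over the 4 shares. The shares of a library sum to a fixed total, so the higher shares of the other loci go with the lower share of mir-26b. The 4 shares are thus not separate results. The contrast between mir-26b and its relatives was tested as the log2 ratio of its reads to those of the other 3 loci. That ratio was −9.82 ± 0.444 in injured and −1.11 ± 0.317 in control libraries (SD, n = 3 each), a difference of −8.71 (two-sided exact permutation p = 0.1). For each mir-26b read the other 3 loci had 845, 1380 and 744 reads in injured libraries, against 2.27, 2.60 and 1.69 reads in control libraries.

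**Figure D4:**
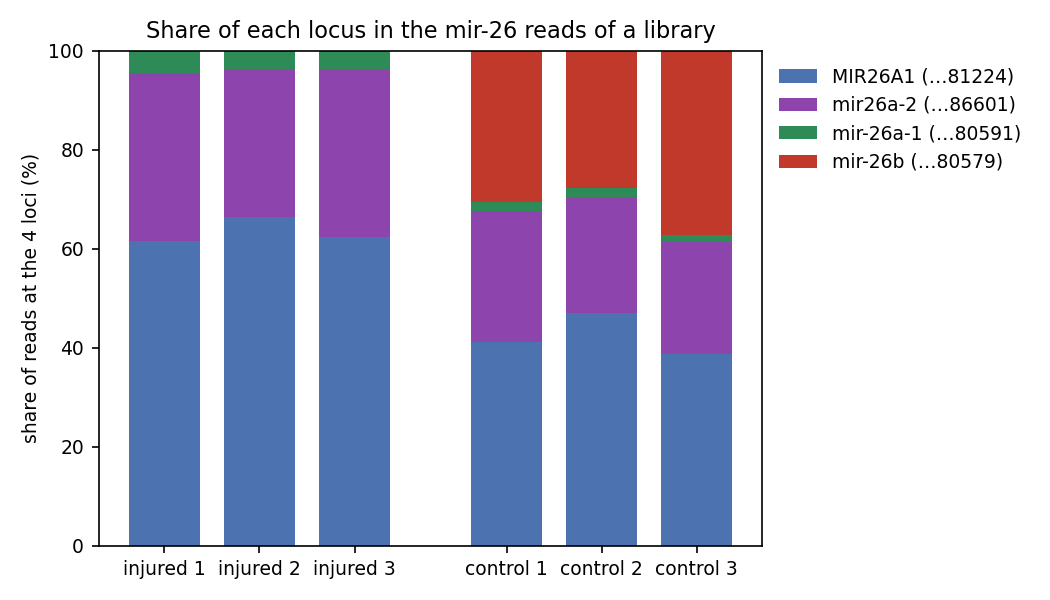
Share in percent of each locus in the reads at the 4 mir-26 loci, 1 bar per library, injured libraries left and control libraries right. mir-26b (red, top) fills 27.8% to 37.1% of the control bars and at most 0.134% of the injured bars, where it is too thin to see.

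Among the 3 loci other than mir-26b the division of reads was nearly alike, apart from mir-26a-1. MIR26A1 took 61.5%, 66.5% and 62.4% of these reads in injured libraries 1, 2 and 3, against 59.4%, 65.1% and 61.7% in control libraries 1, 2 and 3 (two-sided exact permutation p = 0.6). mir26a-2 took 34.1%, 29.9% and 34.0% in injured libraries, against 38.1%, 32.5% and 36.0% in control libraries (two-sided exact permutation p = 0.3). mir-26a-1 took 4.34%, 3.56% and 3.64% in injured libraries, against 2.47%, 2.40% and 2.30% in control libraries. Only the mir-26a-1 shares did not overlap (two-sided exact permutation p = 0.1, and 0.3 after adjustment over these 3 shares). How often such shares did not overlap in other families was not counted here either. This division was chosen after the values had been seen.

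The order of the loci by level was the same in all 3 control libraries and, in another order, in all 3 injured libraries. In injured libraries it was MIR26A1, mir26a-2, mir-26a-1 and mir-26b, each range lying clear of the next. In control libraries it was MIR26A1, mir-26b, mir26a-2 and mir-26a-1. There the ranges of MIR26A1 and mir-26b were separate but close, with 401 RPM as the lowest MIR26A1 value and 384 RPM as the highest mir-26b value. Likewise the lowest mir-26b value, 283 RPM, stood next to the highest mir26a-2 value, 276 RPM. The gaps between these nearest values are smaller than the SD of either locus in control libraries.

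Other miRNA families were described in the same way, with loci grouped by the number in their symbol. In 38 families with at least 2 tested loci, the largest change in the share of a locus was taken. The let-7 loci, whose symbols do not carry a number directly after mir, were left out of this grouping. It was 31.7 percentage points in the mir-26 family, the largest of the 38. The next was 20.01 points at dre-mir-146b-1 in the mir-146 family, and the median of the other 37 families was 1.00 point. The ratio of the summed level in injured to that in control libraries, 0.667, was also the lowest of the 38, followed by 0.751 for mir-429 and 0.781 for mir-128. These are descriptions, and the mir-26 family was chosen with its values known.

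The miRNAs mir-9, mir-124 and mir-132 are tied to the REST and ctdsp silencing complex in mammals, like miR-26. Of their 16 loci, 15 were tested, and 0 were called by edgeR in either direction, by DESeq2 or with library totals, with 0 at an unadjusted edgeR p below 0.05. Over all tested loci edgeR called 12.8% with either scaling and DESeq2 called 16.5%, while 21.8% had an unadjusted edgeR p below 0.05. For these 15 loci the median log2 fold change was −0.03, beside 0.03 over all tested loci. Of the 15, 7 are mir-124 loci, which summed to only 56.8 to 65.8 RPM in injured and 57.1 to 61.6 RPM in control libraries. Several tested mir-9 loci were low too, with means of 2.16 to 17.5 RPM in injured and 2.10 to 13.5 RPM in control libraries. With so few reads a change is harder to call. The most abundant locus of each number was taken as its example. These were dre-mir-132-2 with 124039 ± 6093 RPM in injured and 133847 ± 7366 RPM in control libraries, mir9-4 with 82402 ± 6312 RPM in injured and 80475 ± 3167 RPM in control libraries, and mir124-1 with 19.4 ± 1.30 RPM in injured and 18.5 ± 3.13 RPM in control libraries (SD, n = 3 each). Their log2 fold changes were −0.15, −0.0027 and 0.04, with edgeR adjusted p of 0.249, 0.975 and 0.938.

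Markers of other cells moved with the groups at some loci, to be read against the 12.8% of all tested loci called by edgeR, the 16.5% called by DESeq2 and the 21.8% at an unadjusted edgeR p below 0.05. The 2 tested leucocyte loci, both named MIR142, were called higher, with summed levels of 2606 to 4222 RPM in injured and 1306 to 2156 RPM in control libraries, while MIR223 and mir150 had 0 reads in every library. The 16 tested neuron loci had 1 call lower, at mir128-1 (log2 fold change −0.40, edgeR adjusted p = 0.0157), and 2 at an unadjusted p below 0.05. Their median log2 fold change was 0.0068, and 8 of the 16 were above 0. The 17 annotated loci of that list summed to 5370 to 6282 RPM in injured and 7018 to 7521 RPM in control libraries, of which mir128-1 alone had 5073 ± 431 RPM in injured and 6498 ± 290.1 RPM in control libraries (SD, n = 3 each). The 3 sensory epithelium loci summed to 1406 to 31827 RPM in injured and 1119 to 1894 RPM in control libraries, with 0 calls by edgeR, 3 at an unadjusted p below 0.05 and 3 calls by DESeq2. Erythrocyte, endothelium and muscle lists had 0 calls at 5 tested loci by edgeR or DESeq2, and 0 at an unadjusted edgeR p below 0.05. The part of such cells in the mir-26 values was not tested.

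The loci whose profiles over the 6 libraries were most like each mir-26 locus were found by Euclidean distance between centred log2 CPM values. The same libraries gave the calls, so the calls of the nearest loci follow in part from this choice. No locus was near mir-26b. Its closest, MIR129-2 (ENSDARG00000083082) and mir429b, lay at distances of 9.48 and 9.48, against a median of 10.4 over all loci. This MIR129-2 locus had means of only 2.45 RPM in injured and 4.10 RPM in control libraries. mir-26a-1 was nearest to mir457a (0.282), dre-mir-15b (0.306) and MIR27B (0.321), which were all called higher. MIR26A1 was nearest to mir93 (0.116), mir19d (0.141) and dre-mir-301a-1 (0.143), none of them called. mir26a-2 was nearest to MIRLET7I (0.154), ENSDARG00000089119 (0.170) and mir187 (0.171), none of them called. The family total was nearest to MIR92A1 (ENSDARG00000082154; 0.194), mir128-1 (0.304) and the second MIR92A1 locus (ENSDARG00000104805; 0.386), 3 of the 4 loci called lower. The other is mir-26b, which is part of the total and was not a candidate.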

How the data were processed

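The authors trimmed adaptors with Cutadapt, kept inserts of 21 to 23 nucleotides, mapped them to GRCz11 and counted reads at annotated miRNA loci with HTSeq. The study's methods name STAR, 1 mismatch and a mapping quality of 30, whereas the submitters' processing notes name BWA. Versions of these tools: not given in the sources used here. The deposited values are raw counts per locus, 1 table per library. The 5 HTSeq summary lines were left out, and reads outside miRNA loci were 11.4% to 12.3% of the reads that entered counting. The line for unaligned reads held 0 reads in every library, so the share of all sequenced reads is not known. Symbols came from a table that named 331 of the 434 loci. Coordinates served only to find the genes that span the mir-26 genes in GRCz12tu, and sequences were not used here.

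Scaling was by TMM (trimmed mean of M values) factors over all loci. The 188 loci with a mean normalised count above 10 were compared with edgeR 4.0.16 (quasi-likelihood test, two-sided, group as the only term, Benjamini-Hochberg adjustment, called at 0.05) in R 4.3.3. SE is the fold change over the root of the F statistic. Family sums were fitted as 1 row of the whole table. Shares and ratios used exact permutation tests over the 6 libraries, with 0.5 reads added to both terms of the log2 ratio, and Clopper-Pearson intervals at 95%. Log2 CPM for distances used a prior count of 2. Pairs of replicates differed by a chi-square of 42.8 to 1982 per degree of freedom, so none was counted once. The fits were also run on simulated data with planted changes and the spread and depths of these libraries, and the outcome is not given here. That simulation cannot address other differences between the groups that go with depth.

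Named loci are the 4 members, the 3 nearest profiles to each and to the total, and of the mir-9, mir-124 and mir-132 loci the most abundant of each number and any called. Families were to be grouped by seed, and the number in the symbol was used instead. Members, lists and tests were chosen with earlier results of these data known. Alternatives were DESeq2 1.42.0, limma-voom (limma 3.58.1), other scalings and filters, Bonferroni adjustment, a replicate block, thinning, and each library left out.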

Additional observations from a re-analysis of the deposited data

How the results depend on the processing

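Log2 fold changes of the family total ran from −0.74 to −0.58 and of mir-26b from −8.94 to −8.44 over 16 settings each, all called. MIR26A1, mir26a-2 and the 3 loci without mir-26b were called in none and kept their sign. The call of mir-26a-1 was lost with limma-voom (0.60, adjusted p = 0.0504), upper-quartile scaling (0.51, adjusted p = 0.0906), Bonferroni adjustment (0.61, adjusted p = 0.513), the planned thinning (0.43, adjusted p = 0.138) and the median of the 20 added thinnings (0.63, adjusted p = 0.0788). Leaving out 1 library gave 0.52 to 0.67. Bonferroni adjustment is a stricter limit by construction and left the fold change as it was. Thinning and leaving out a library use fewer reads or samples, but there the fold change moved as well. The cause of the losses other than by Bonferroni adjustment was not tested.

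The number of called loci was 24, against 6 with Bonferroni adjustment and 10 to 24 with 1 library left out, with 10 without injured 3, 10 without control 1, 14 without control 2 and 11 without control 3. Upper-quartile scaling moved the median change over all loci by −0.11 (log2) and gave 11 higher and 5 lower, against 20 and 4. DESeq2 gave 22 higher and 9 lower, and size factors by relative log expression gave 15 and 6. The difference in the share of MIR26A1 among the 3 loci, 1.42 percentage points, became −0.109 without injured 2 and 2.92 without control 2, the range over libraries left out. The cause was not tested.

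Deviations of same-numbered libraries correlated at 0.32, 0.12 and 0.08 across loci, not all over 0.1, so the numbers were not taken to pair the libraries. Each injured library correlated best with the control of its own number, a hint from the data only. Injured against control of the same number, MIR26A1 differed by −0.48%, −0.29% and 0.85% for numbers 1, 2 and 3. For mir26a-2 these differences were −13.9%, −10.4% and −5.80%. The replicate block gave 22 calls, 16 higher and 6 lower, and log2 fold changes of −0.62 for the family total, −8.80 for mir-26b and 0.61 for mir-26a-1 (adjusted p = 0.0451), with no call of the family changed. Few reads stand behind mir-26a-1 in control libraries, 37 to 71, and behind mir-26b in injured libraries, 6 to 12.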
